A study of Danio rerio with 6 samples.

Results

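CTCF sites near chromosome ends are the regions bound by CTCF that lie within 2 Mb of either end of a zebrafish chromosome. A peak was a member when it lay wholly within 2 Mb of position 0, or within 2 Mb of the largest peak end listed for its chromosome in any library, which stood in for the chromosome's length. Chromosomes 1 to 25 were used except chromosome 4, which gives 24 chromosomes and 48 ends. Of the 162429 CTCF peaks in the lists, 153174 lay on these chromosomes and 18292 lay near an end. Peaks of a condition that overlapped by at least 1 bp were merged, and a merged region counted as a site if both replicates contributed to it. Near the ends there were 2530 of 21279 sites at 24 hpf, 2644 of 22652 at 48 hpf in WT embryos and 123 of 750 in ctcf-/- embryos. The end zones make up 96 Mb of 1263.61 Mb, or 7.60% of the length covered. The lists begin close to position 0, with the first peak of a chromosome starting between 250 and 29867 bp, at a median of 5669 bp. The far ends have a peak at distance 0 by construction, and sequence beyond the last listed peak is not covered.

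CTCF was profiled by ChIPmentation, a ChIP-seq protocol whose sequencing adapters are inserted by Tn5 transposase into antibody-bound chromatin. The groups were WT embryos at 24 hpf, WT embryos at 48 hpf and ctcf-/- embryos at 48 hpf, each with 2 replicates of whole embryos, so that all tissues of the embryo contribute to each list. The ctcf-/- embryos carry a CRISPR/Cas9 deletion in both zygotic copies of ctcf and inherit CTCF from the mother. The paper describes the antibody as specific for the zebrafish protein. In the paper, maternal CTCF could not be seen in ctcf-/- nuclei by 24 hpf, though some residual protein was held possible then. Its Western blot of ctcf-/- embryos at 48 hpf found no CTCF. By ChIPmentation at that stage, the paper reported that most sites had lost CTCF in ctcf-/- embryos, while a few strong ones kept it. Peaks were called in each library alone on the GRCz10 (danRer10) assembly.

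CTCF is a zinc-finger protein that binds a long, conserved DNA motif. Where it is bound, it halts the cohesin complex as it extrudes chromatin loops, and pairs of CTCF sites facing each other anchor many loops and the boundaries of topologically associating domains. Chromosome ends differ from the rest of vertebrate chromosomes in gene density, base composition and recombination in many species, and the telomere repeats lie beyond the last unique sequence.

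The libraries differed in depth, which limits any comparison of conditions. The lowest background that MACS2 used in a list, taken as a measure of depth, was 44.0 and 12.4 tags per 10 kb for replicates 1 and 2 of WT 24 hpf, 19.8 and 17.9 for WT 48 hpf, 8.50 for ctcf-/- replicate 1 and at most 4.00 for ctcf-/- replicate 2. The lists held between 26350 and 67512 peaks in WT and 2717 and 1706 in ctcf-/-. With 2 libraries per group, an exact two-sided permutation test between groups cannot give a p below 0.3333. End and interior zones were therefore compared chromosome by chromosome within the same lists, with an exact two-sided Wilcoxon signed-rank test over 24 chromosomes and Benjamini-Hochberg adjustment over 16 tests. Chromosomes of a list share their library, so these p-values describe the lists and not a spread between embryos. The smallest p that 24 chromosomes can give is 1.19e-07.

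CTCF sites were denser near the ends of every chromosome. At 48 hpf, WT embryos had 27.5 sites per Mb within 2 Mb of an end and 17.1 in the interior of the same chromosomes, a ratio of 1.61. The SD over chromosomes was 3.89 sites per Mb near the ends and 1.09 in the interior, and 24 of 24 chromosomes were denser near their ends (exact adjusted p = 3.81e-07). Per chromosome, end density ran from 22 to 35.75 sites per Mb and interior density from 15.2 to 19.3, so the groups of values did not overlap. The ratio was lowest on chromosome 3, at 1.26, and highest on chromosome 1, at 2.15.

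The earlier stage gave the same picture. At 24 hpf there were 26.4 sites per Mb near the ends (SD 3.80 over chromosomes) and 16.1 in the interior (SD 1.12), a ratio of 1.64. Again 24 of 24 chromosomes were denser near their ends (exact adjusted p = 3.81e-07), with ratios between 1.32 on chromosome 20 and 2.16 on chromosome 22. Leaving out the outermost 100 kb of each end, where the far limit is set by a peak, left densities of 24.9 against 16.1 at 24 hpf and 25.95 against 17.14 at 48 hpf. Leaving out sites of high local background, at least 10 times that of the genome, left 20.16 against 14.98 at 24 hpf, a median difference of 4.34 in place of 10.3 sites per Mb, and 23.1 against 16.2 at 48 hpf.

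In ctcf-/- embryos, few sites were left, and these too were denser near the ends. They numbered 1.28 per Mb near an end (SD 0.538 over chromosomes) and 0.537 per Mb in the interior (SD 0.141), a ratio of 2.39. The end zone was denser on 21 chromosomes and sparser on 3 (exact adjusted p = 4.36e-05). Unlike in WT, the values overlapped: end density ran from 0 on chromosome 7 to 2.5, and interior density from 0.292 to 0.811.

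**Figure D1:**
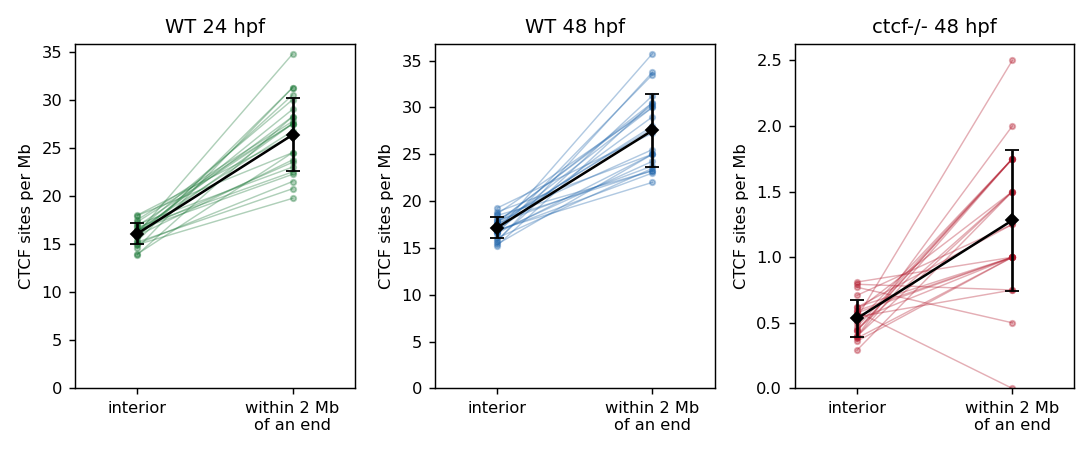
CTCF sites per Mb in the interior and within 2 Mb of an end, with a coloured line for each of 24 chromosomes and black diamonds for the mean with its SD over chromosomes. All lines rise in both WT groups, and 21 rise in ctcf-/- embryos, whose axis covers a much smaller range.

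The peak lists of single libraries, before replicates are combined, gave the same direction. The density of peaks near ends over that in the interior was 1.69 and 1.71 in WT 24 hpf, 1.600 and 1.512 in WT 48 hpf, and 1.754 and 2.712 in replicates 1 and 2 of ctcf-/-. Both ctcf-/- libraries were above both WT 48 hpf libraries. The mean log2 ratio was 0.49 higher in ctcf-/- than in WT 48 hpf, with an exact permutation p of 0.3333, the smallest these libraries can give. Without ctcf-/- replicate 2, the shallowest library, the difference was 0.17.

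The excess of sites was steepest toward the tip. In WT 48 hpf, density was 57.7 sites per Mb in the first 0.1 Mb from an end, 46.0 from 0.1 to 0.25 Mb and 39.4 from 0.25 to 0.5 Mb. It was 28.2 from 0.5 to 0.75 Mb and 23.2 from 0.75 to 1 Mb, and then lay between 18.5 and 20.3 out to the 2 Mb limit. WT 24 hpf sites followed the same course, from 53.1 sites per Mb in the first 0.1 Mb to 16.6 between 1.75 and 2 Mb. Density thus fell toward the interior mean well before the limit that defines the zone. The interior was not level: from 3 to 15 Mb, WT 48 hpf density per bin lay between 14.5 and 16.6, below the interior mean of 17.1.

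Single ends varied around this course. The outermost 0.5 Mb held 45.04 sites per Mb on average (SD 15.4 over 48 ends, from 6 to 76), against 19.3 (SD 8.13, from 2 to 48) between 1.5 and 2 Mb. The outer 0.5 Mb was denser than the stretch from 0.5 to 2 Mb at 43 of 48 ends. The outermost 0.5 Mb exceeded the interior density of its own chromosome at 45 of 48 ends, and the stretch from 1.5 to 2 Mb did so at 28.

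In ctcf-/- embryos, sites thinned out along the same axis. They numbered 3.54 per Mb in the first 0.1 Mb, 3.19 from 0.1 to 0.25 Mb and 1.5 from 0.25 to 0.75 Mb, and 0.417 between 1.75 and 2 Mb, where only 5 sites were counted. The outermost 0.5 Mb held 58 of the 123 sites near ends.

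**Figure D2:**
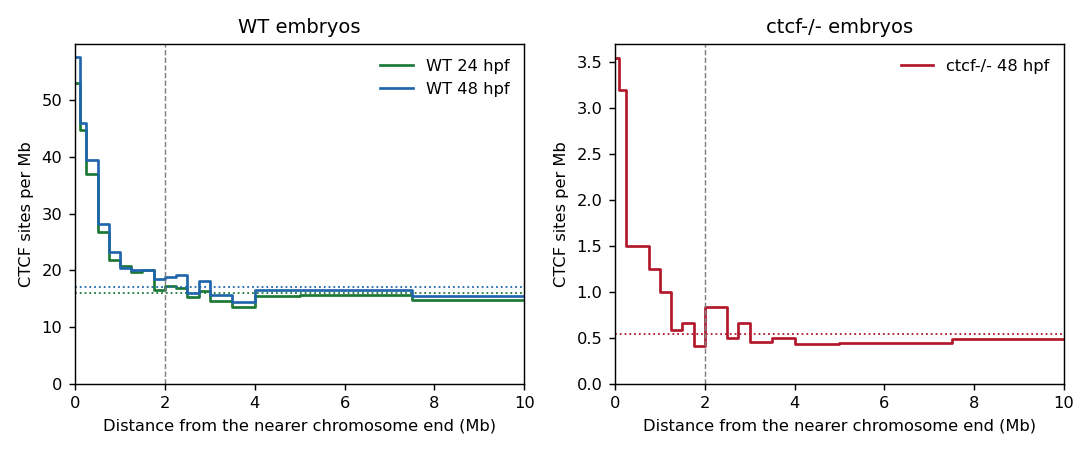
CTCF sites per Mb against the distance from the nearer chromosome end, in bins of 0.1 Mb at the end and up to 2.5 Mb further in, for WT at both stages and for ctcf-/- embryos on an axis of its own. The dashed line is the 2 Mb limit and the dotted lines are the interior densities (16.1, 17.1 and 0.537 sites per Mb); all curves start highest at the end.

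Values on either side of the limit are given without a test. From 1.75 to 2 Mb there were 222 WT 48 hpf sites (18.5 per Mb), of which 68.5% were found at 24 hpf and 2.25% overlapped a ctcf-/- site. From 2 to 2.25 Mb there were 225 sites (18.75 per Mb), with shares of 71.6% and 4.44%. No WT 48 hpf site spanned the limit. The innermost member, chr9:1998776-1999049, had mean percentile 84.1 in fold enrichment over the 48 hpf replicates, and the nearest site outside, chr18:2002574-2002863, had 54.6.

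The number of sites per end ranged from 35 to 87 in WT 48 hpf, with a median of 55. All 48 ends were denser than the interior of their own chromosome. The densest were the start of chromosome 9 with 87 sites (43.5 per Mb), the start of chromosome 22 with 86 (43 per Mb) and the start of chromosome 19 with 76 (38 per Mb). The sparsest were the far end of chromosome 9 with 35 sites (17.5 per Mb), the far end of chromosome 14 with 38 (19 per Mb) and the start of chromosome 7 with 39 (19.5 per Mb). Chromosome 9 thus held both the densest and the sparsest end, which was still above its interior density.

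The contrast between the ends of chromosome 9 was seen in each WT library. The start of chromosome 9 had 236 and 89 peaks in the WT 24 hpf libraries and 98 and 109 in the WT 48 hpf libraries, against 138 and 38, and 53 and 53, at its far end. The start of chromosome 22 had 242 and 98 peaks at 24 hpf and 106 and 104 at 48 hpf. Start ends had 28.6 sites per Mb and far ends 26.5, with each higher on 11 chromosomes and no difference past the threshold (exact adjusted p = 0.458).

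**Figure D3:**
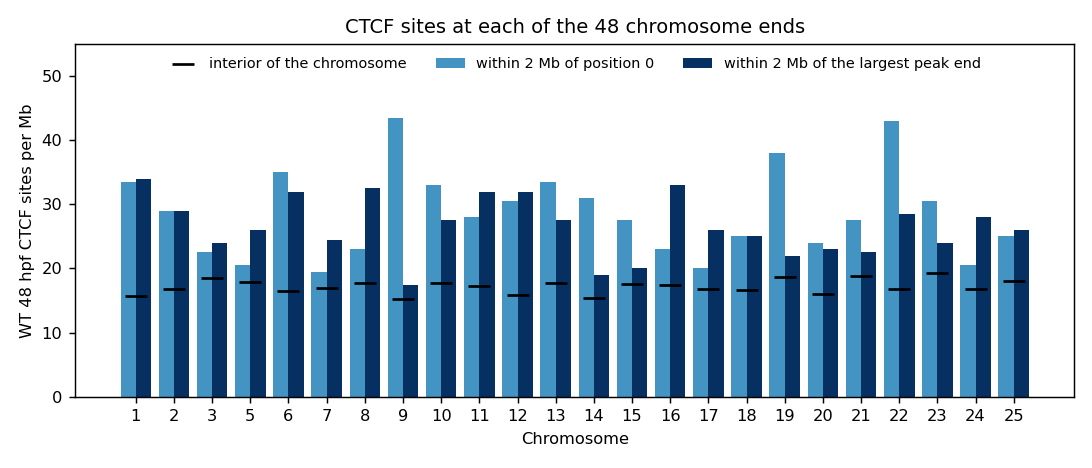
WT 48 hpf CTCF sites per Mb at both ends of each of 24 chromosomes, as bars, with a black dash for the interior density of the same chromosome. Every bar exceeds its dash, and the start ends of chromosomes 9 (43.5) and 22 (43) stand highest.

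Sites near ends sat closer together, which their higher density already implies. The tests of spacing and of clustering below are therefore not separate from the test of density. The median gap between neighbouring WT 48 hpf sites was 19.0 kb near ends (SD over chromosomes 3.49) and 33.9 kb in the interior (SD 2.38), and it was shorter near ends on 24 of 24 chromosomes (exact adjusted p = 3.81e-07). A neighbour within 30 kb, the distance used in the study to call peaks clustered, was found for 85.4% of sites near ends and 70.1% of interior sites, again with 24 of 24 chromosomes higher (exact adjusted p = 3.81e-07). The sites themselves were of the same width, with a median of 317 bp near ends and 318 bp in the interior at 48 hpf, and 403 and 397 bp at 24 hpf.

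How strongly sites were bound depended on the measure. MACS2 gives for each peak the fold enrichment of its summit over the local background. That background counts the fragments of the same library in windows of up to 10 kb, those of the peak itself and of neighbouring peaks included. The pileup, the number of fragments stacked at the summit, was recovered from the fold enrichment and the −log10 p. Each was ranked as a percentile within its own list, and the strongest peak of a site was taken.

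By fold enrichment, sites near ends ranked slightly lower in 3 of the 4 WT libraries. The median percentile was 58.6 near ends and 61.4 in the interior in WT 48 hpf replicate 1 (lower on 18 of 24 chromosomes, exact adjusted p = 0.0286). It was 61.8 against 63.8 in replicate 2 (lower on 19, exact adjusted p = 0.0334) and 72.0 against 74.9 in WT 24 hpf replicate 1 (lower on 17, exact adjusted p = 0.0128). In WT 24 hpf replicate 2 the values were 57.0 and 55.8 (exact adjusted p = 0.346), so the direction there was not resolved. Both calls at 48 hpf were lost when the chromosome with the largest difference was left out (exact adjusted p = 0.0523 and 0.0604), and replicate 2 also lost its call without replicate 1 (exact adjusted p = 0.877). The call at 24 hpf was lost without the outermost 100 kb (exact adjusted p = 0.0908), and a zone of 5 Mb ended all 3 calls. Without high local background, the direction in WT 24 hpf replicate 1 turned, to a median difference of 0.38 points (exact adjusted p = 0.944).

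By pileup, a measure added after the data were seen, the order was the other way round in all 4 WT libraries. Sites near ends had median percentiles of 67.6 and 68.8 in the WT 48 hpf replicates, against 59.8 and 63.1 in the interior. At 24 hpf they had 86.7 and 64.2, against 75.8 and 52.7. The largest adjusted p of these 4 tests was 5.30e-06. In fragments, the median summit at 48 hpf held 25 and 24 near ends and 21 and 21 in the interior.

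The local background was also higher near ends. At least 2 times the genome background of WT 48 hpf replicate 1 lay around 85.6% of sites near ends and 75.7% of interior sites, with 24 of 24 chromosomes higher (exact adjusted p = 3.81e-07). Its median was 4.25 times the genome background near ends and 3.09 times in the interior in replicate 1, and 4.46 and 3.34 times in replicate 2. In WT 24 hpf replicate 2, where fold enrichment did not rank lower near ends, the medians were 4.43 and 3.14 times. A tall summit and its neighbours raise this background themselves, so its test is not separate from those of density and pileup. The part of local background in the lower rank by fold enrichment was not tested.

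**Figure D4:**
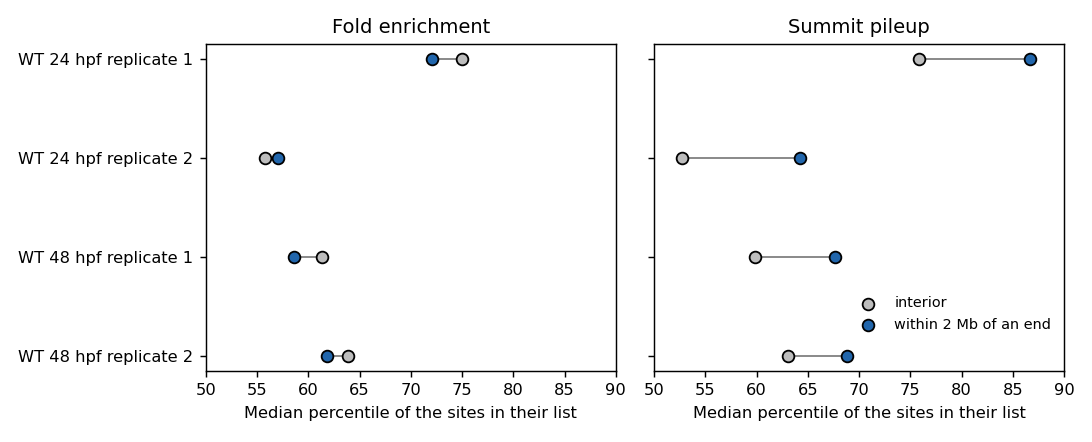
Median percentile of WT sites within their own list by fold enrichment (left) and by summit pileup (right), for sites within 2 Mb of an end (blue) and interior sites (grey) in 4 libraries. Blue lies left of grey in 3 libraries on the left (for example 58.6 against 61.4) and right of grey in all 4 on the right (67.6 against 59.8); the axis runs from 50 to 90.

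Replicates ranked the sites alike in both zones. Across the 2644 WT 48 hpf sites near ends, fold enrichment in replicate 1 and in replicate 2 had a Spearman's rho of 0.824, against 0.812 across interior sites. This is a description over the sites of 2 libraries and not a test over embryos.

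The strongest sites near ends by fold enrichment reached the top of both 48 hpf lists. The highest mean percentile of fold enrichment, 99.97, belonged to chr18:375999-376412. Its summit held 115 and 114 fragments in the WT 48 hpf replicates and 204 and 41 in the WT 24 hpf replicates. Fragments order these sites otherwise, and summits near ends held up to 163 and 172 in the WT 48 hpf replicates. Next came chr8:52616101-52616483 (91 and 96 fragments at 48 hpf), chr22:568217-568616 (139 and 133), chr12:47282958-47283360 (117 and 116) and chr25:181836-182243 (144 and 138). All 5 were found at 24 hpf, where 76.9% of all WT 48 hpf sites near ends were, and all but the site on chromosome 12 overlapped a ctcf-/- site. Most strong sites did not. Of the 245 sites near ends above percentile 90 of fold enrichment in both replicates, 58 (23.7%) overlapped a ctcf-/- site. In the interior 328 of 2029 (16.2%) did. Among the sites that touch the outer limit itself, ranks were mixed: 5 sites held the largest listed peak end of their chromosome, and their mean percentiles ran from 25.4 on chromosome 15 to 98.9 on chromosome 6.

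Most sites near ends were bound at both stages. Of the 2644 WT 48 hpf sites near ends, 2034 (76.9%) overlapped a 24 hpf site, against 14983 of 20008 (74.9%) in the interior and 75.1% of all. The share was higher near ends on 16 of 24 chromosomes, with SDs over chromosomes of 4.23 and 1.86 percentage points (exact p = 0.0457, adjusted p = 0.0604). Of the 2530 WT 24 hpf sites near ends, 2019 (79.8%) overlapped a 48 hpf site, against 79.5% in the interior and 79.5% of all (exact adjusted p = 0.509). Neither share differed between zones past the threshold.

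Several alternatives changed these stage shares. The 48 hpf share was higher near ends by 4.91 percentage points (median over chromosomes, exact adjusted p = 2.40e-05) when WT 24 hpf replicate 1, the deepest list, was shortened to the length of replicate 2. It was lower by 5.99 points (exact adjusted p = 2.23e-05) when sites whose local background reached 10 times that of the genome were left out. They were left out of each stage by itself, so a 48 hpf site lost its match where only its 24 hpf site was removed. More 24 hpf sites per Mb were removed near ends (26.4 to 20.16) than in the interior (16.1 to 14.98). This reversal therefore cannot show whether stage sharing itself was lower near ends. The size of the difference depended on the alternative, and its median over chromosomes turned only under that removal.

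The 610 WT 48 hpf sites near ends without a 24 hpf site mostly still had a peak in at least 1 of the 24 hpf lists. Of the WT 48 hpf sites near ends, 94.6% overlapped a peak of WT 24 hpf replicate 1, 79.6% a peak of the shallower replicate 2, and only 68 (2.57%) neither. In the interior, 3.51% overlapped neither. This held less for the WT 24 hpf sites near ends. There, 511 overlapped no 48 hpf site, and 226 of these overlapped no 48 hpf peak in either list. The 226 were 8.93% of the WT 24 hpf sites near ends, against 8.45% in the interior.

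Among WT 48 hpf sites, stage sharing was highest toward the tip. From the end to 0.5 Mb, between 79.1% and 80.7% of WT 48 hpf sites per bin were found at 24 hpf. Further in, the share was 72.3% from 0.75 to 1 Mb, 77.2% from 1.5 to 1.75 Mb and 68.5% from 1.75 to 2 Mb. It thus did not fall steadily. Within 1 Mb of an end the share was 78.4%, against 74.9% in the rest (exact adjusted p = 0.000737). This zone is an alternative to the 2 Mb zone, whose difference did not pass the threshold. That difference reversed without high local background, a removal that also took away matches between stages. Of the WT 24 hpf sites, between 82.0% and 84.7% per bin overlapped a 48 hpf site from the end to 0.5 Mb. Outside the zone, from 2.25 to 2.5 Mb, that share was 85.1%.

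The part of a chromosome's sites that lay near its ends was 11.7% at 48 hpf and 11.9% at 24 hpf, with 16 of 24 chromosomes lower at 48 hpf. The median difference, 48 hpf minus 24 hpf, was −0.25 percentage points. It was −1.22 in the union of the replicates and −1.07 with WT 24 hpf replicate 1 shortened, but 0.38 without high local background, so its direction depended on the alternative.

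Most sites near ends were not listed in ctcf-/- embryos, but a larger share remained there than in the interior. That difference did not pass the threshold without sites of high local background (2.08% against 1.46%). This removal took out many of the remaining sites themselves, in both zones. The term persisting is used for WT 48 hpf sites with a ctcf-/- site under them, by at least 1 bp. Persisting sites were 122 of 2644 near ends (4.61%) and 596 of 20008 in the interior (2.98%), against 3.17% of all WT 48 hpf sites. The share was higher near ends on 20 of 24 chromosomes, with SDs over chromosomes of 1.78 and 0.708 percentage points (exact adjusted p = 0.00356). The lower depth of both ctcf-/- libraries cannot be told apart from the genotype, so a site outside these lists is not shown to be unbound.

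Each ctcf-/- library gave the same direction. Peaks of replicate 1 overlapped 185 of the 2644 sites near ends (6.997%) and 5.16% of interior sites, and peaks of replicate 2 overlapped 236 (8.93%) and 5.38%. No ctcf-/- peak of either replicate lay at 2346 of the sites near ends (88.7%) and at 92.4% of interior sites.

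In the ctcf-/- lists, ends held a larger part of all sites. Of the ctcf-/- sites, 16.4% lay near an end, against 11.7% of the WT 48 hpf sites, and the ctcf-/- share was the higher on 19 of 24 chromosomes, by a median of 5.52 percentage points. Without ctcf-/- replicate 2 the shares were 12.6% and 11.7%, with a median difference of 0.83 points and 13 chromosomes higher. Chromosomes are not replicates of a genotype, and between the libraries themselves the exact p given above was 0.3333, so no difference between genotypes is called.

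Very high local background in the mutant lists lay mostly in the interior. In ctcf-/- replicate 1, the local background reached 20 times that of the genome at 1 of 123 ctcf-/- sites near ends and 144 of 627 in the interior. In replicate 2 it did so at 7 and 145 of these, while 10 times was reached at similar shares, 38 of 123 (30.9%) and 186 of 627 (29.7%). Without the sites marked by replicate 1, a choice made after the data were seen, 4.58% of sites near ends and 2.39% of interior sites persisted (exact adjusted p = 4.94e-05). Leaving out sites whose local background reached 10 times that of the genome in any of their libraries gave 2.08% and 1.46%, and the difference no longer passed the threshold (exact adjusted p = 0.0796). Before this removal the shares were 4.61% and 2.98%. It took out many persisting sites in both zones, since their median background lay near 10 times that of the genome. The loss of the call therefore cannot tell a part of background from a smaller number of persisting sites.

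Persisting sites were among the strongest of the end sites. Their median pileup percentiles in the WT 48 hpf replicates were 97.3 and 97.9, against 65.9 and 67.0 for the other end sites. Interior persisting sites had 97.1 and 96.4. In fold enrichment the medians were 90.8 and 91.5 for persisting end sites, against 57.1 and 60.2 for the other end sites. Interior persisting sites had 92.6 and 93.4. Persisting end sites also lay in higher local background, with medians of 9.46 and 10.3 times the genome background. The other end sites had 4.10 and 4.35 times, and interior persisting sites 9.36 and 9.87 times. Fragments of a tall summit count toward its own local background, so this is not a trait separate from pileup. Of the 122 persisting sites near ends, 119 (97.5%) were also found at 24 hpf, against 75.9% of the other end sites and 75.1% of all WT 48 hpf sites. The share was much the same for interior persisting sites, 577 of 596 (96.8%).

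High pileup was more frequent near ends, and persistence was common only at sites of high pileup. When all WT 48 hpf sites were ranked by pileup into 4 classes of equal size, the highest class held 31.4% of the sites near ends and 24.2% of the interior sites. In that class 13.5% of sites near ends and 11.5% of interior sites persisted. In the class below, 1.01% and 0.684% persisted, and in the lowest 2 classes together only 3 sites near ends did. At the interior share of each class, 101 persisting sites (3.81%) would stand near ends, against the 122 counted. When the classes were made from fold enrichment instead, that number was 76.6 (2.90%). In the lowest class of fold enrichment, 99 of 4932 interior sites (2.01%) and 1 of 731 near ends (0.137%) persisted. In every higher class of fold enrichment the share was higher near ends. The part of pileup in the higher persisting share near ends was not tested.

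**Figure D5:**
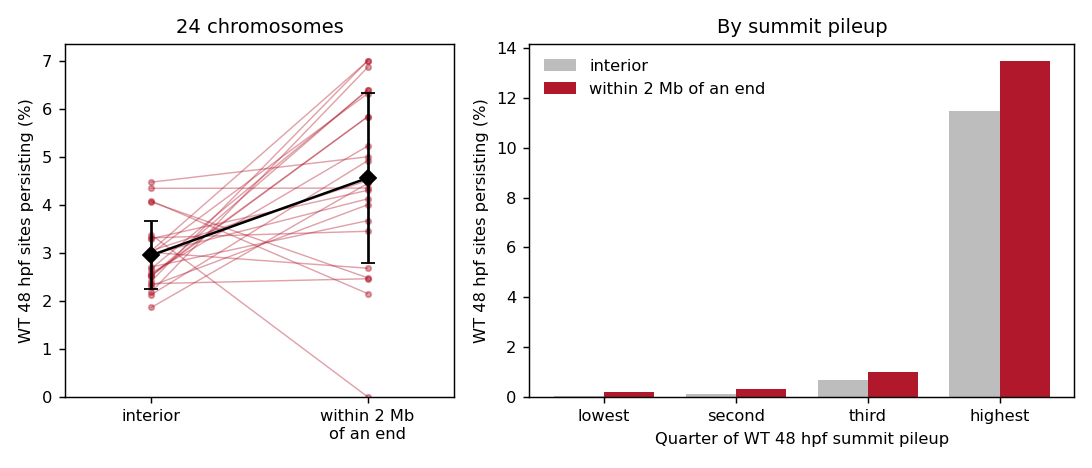
Percentage of WT 48 hpf sites that overlap a ctcf-/- site. Left, a line per chromosome from the interior to the end zone, with the mean and SD over 24 chromosomes in black; right, all sites in 4 equal classes of summit pileup. The line rises on 20 chromosomes, and in the highest class 13.5% of sites near ends and 11.5% of interior sites persist.

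Persistence was spread over nearly all ends. At least 1 persisting site was found at 46 of 48 ends, with a median of 2 and at most 7. The start of chromosome 22 held 7 of 86 sites, the start of chromosome 12 held 5 of 61, and the far end of chromosome 25 held 5 of 52. Chromosome 7 had none at either end, among 39 and 49 sites. Start and far ends each held 61 persisting sites, of 1373 and 1271. By distance, 6.14% of sites persisted in the first 0.1 Mb, 6.95% from 0.1 to 0.25 Mb and 3.81% from 0.25 to 0.5 Mb. The share was between 4.92% and 5.40% from 0.5 to 1.25 Mb, and 2.25% from 1.75 to 2 Mb, where 5 sites were counted, so it did not fall steadily.

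Summits of the strongest persisting sites held fewer fragments in the mutant lists than in the deeper WT lists. These sites were chosen by their WT 48 hpf rank in fold enrichment, and fragments are not scaled for depth. A lower mutant count therefore does not show weaker binding. At chr22:568217-568616, the summits held 30 and 20 fragments in ctcf-/- replicates 1 and 2, against 139 and 133 in WT 48 hpf, and their fold enrichment ranked at percentiles 99.6 and 89.7 of the ctcf-/- lists. At chr8:52616101-52616483 they held 24 and 26 fragments (fold enrichment percentiles 98.7 and 97.1), and at chr18:375999-376412 15 and 20 (89.4 and 88.7). At chr25:181836-182243, with 15 and 29 fragments, fold enrichment ranked at percentiles 39.5 and 93.2. The median summit of all listed ctcf-/- peaks held 9 and 11 fragments.

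The other 6 of the 10 strongest persisting sites ranged from summits near that median to the tallest of the set. The tallest mutant summits were at chr11:913660-914134, with 40 and 29 fragments, and at chr19:711906-712472, with 26 and 25. The lowest were at chr15:47625036-47625328, with 11 and 10. Between these lay chr20:53448808-53449172 (11 and 20), chr9:650194-650721 (15 and 11) and chr19:155430-155751 (18 and 9).

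Nearly every ctcf-/- site near an end had a WT site under it. This held for 122 of 123 near ends (99.2%) and for 596 of 627 in the interior (95.1%). The exception, chr9:709106-709281, lay 709 kb from the start of chromosome 9 and held 9 and 7 fragments in the ctcf-/- replicates. The nearest WT 48 hpf peaks were 12366 and 12378 bp away, and the nearest WT peak of any list, in WT 24 hpf replicate 1, was 1535 bp away.

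The densest end includes part of a developmental landscape. The HoxD locus, whose homeobox genes pattern fins and the body axis, lies near the start of chromosome 9, and 372 kb of the region that the study modelled around it fall inside the 2 Mb limit. This stretch held 19 WT 48 hpf sites (51.1 per Mb), of which 16 were found at 24 hpf, where 75.1% of all sites were. The libraries listed 38 and 18 peaks there at 24 hpf, 21 and 23 at 48 hpf, and 3 and 4 in ctcf-/-. Only 1 of the 19 persisted, near the 3.17% of all sites. This was chr9:1727465-1727768, with 49 and 35 fragments in the WT 48 hpf replicates and 8 and 14 in the ctcf-/- replicates. The strongest WT site of the stretch, chr9:1956586-1956911 with mean percentile 95.2 and 64 and 56 fragments, had a peak in ctcf-/- replicate 2 only.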

How the data were processed

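ChIPmentation peak lists of 6 libraries were used, 2 each of WT 24 hpf, WT 48 hpf and ctcf-/- 48 hpf whole embryos. The authors aligned reads with Bowtie2 to GRCz10 (danRer10), kept read pairs under 2 kb apart and called peaks in each library with MACS2 at an FDR of 0.001. Fold enrichment, a linear ratio of summit pileup to local background with the same constant added to both, was used as deposited by the authors. So were the deposited −log10 p of each summit and its −log10 q. No control library is named for the call, and nothing is normalized between libraries. Pileup and background were solved from fold enrichment and −log10 p, which fitted within 0.002 for 100% of peaks, with another whole number also possible for at most 2.34% of a list. A high local background lowers fold enrichment, and a lower depth shortens a list.

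Sites, zones and the exact signed-rank test were computed in Python 3.11.15 (numpy 2.4.6, pandas 2.3.3, scipy 1.17.1, matplotlib 3.10.9) and tested on simulated data. The members, comparisons and alternatives were chosen with earlier results of these data known, and the threshold on adjusted p was 0.05. Shares are over sites, which are not independent, so no error over sites is given. The SD over chromosomes is the spread of the values of single chromosomes and not the error of the pooled value beside it.

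Alternatives were a zone of 1 or 5 Mb, assignment by midpoint, −log10 q of at least 5 or 10, reciprocal overlap of 50%, the union of replicates, each replicate left out, WT 24 hpf replicate 1 shortened, removal of high local background, of the outermost 100 kb or of the chromosome with the largest difference, and a replicate block. Named were the 5 strongest sites near ends, the 10 strongest persisting ones, ctcf-/- sites without a WT site, the 3 densest, 3 sparsest and 3 most persisting ends, the 5 sites nearest an end, those beside the limit, and sites of the HoxD region. Chromosome 4, unplaced sequences, genes and sequences under the sites were not analysed here. The replicates are described as biological, but the labels do not say whether they came from separate clutches. Replicate numbers are not said to mark a shared batch.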

Additional observations from a re-analysis of the deposited data

Results flagged for a closer look

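The part of a chromosome's CTCF sites that lay near its ends was larger in the ctcf-/- lists, with 16.4% of ctcf-/- sites and 11.7% of WT 48 hpf sites within 2 Mb of an end. The median difference over 24 chromosomes was 5.52 percentage points, higher in ctcf-/- on 19 and lower on 5, by the exact two-sided Wilcoxon signed-rank test over chromosomes with Benjamini-Hochberg adjustment over 16 tests (adjusted p = 0.00220). That test sets chromosomes of the same libraries against each other and describes the lists; between the libraries, the exact permutation p of the log2 ratio of end to interior peak density was 0.3333, so no difference between genotypes is called. Without ctcf-/- replicate 2 the median difference was 0.83 points, higher on 13 and lower on 11 (exact adjusted p = 0.231). The difference ranged from −6.91 points on chromosome 7, where no ctcf-/- site lay near an end, to 20.4 points on chromosome 25.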

How the results depend on the processing

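Values here are medians over chromosomes, of the end minus the interior value for most measures, of ctcf-/- minus WT or 48 minus 24 hpf for the end shares. Assignment by midpoint changed none of 17 values. Of 195 other recomputed values, without the library comparison, which cannot pass the threshold, 152 kept their direction and their side of the threshold. This count includes start against far ends, whose main value was 0, with no direction to keep. Its alternatives ran from −1 to 3.5 sites per Mb, none past the threshold. The higher density in all 3 groups, the shorter spacing, the clustered share and the local background passed the threshold with their direction kept under every alternative run on them. Spacing and the clustered share follow from density and are not separate results. The local background counts the peaks themselves, so it is not separate from density and pileup either. Within 1 or 5 Mb of an end, the density difference at 48 hpf was 16.6 and 4.45 sites per Mb.

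The persisting share lost its call without high local background (0.80 points), a removal that took out many persisting sites in both zones. The end share of ctcf-/- minus WT was lowest without ctcf-/- replicate 2 (0.83 to 6.94 points with each library left out). The stage overlap of 48 hpf sites passed the threshold within 1 Mb (3.08), at −log10 q of at least 5 (2.84), with reciprocal overlap (1.64), in the union (4.02) and with WT 24 hpf replicate 1 shortened (4.91), ranged from 1.00 to 4.78 with each library left out (past the threshold without replicate 1 of either stage), and reversed to −5.99, past the threshold, without high local background. That of 24 hpf sites was 2.06 within 1 Mb, past the threshold, and reversed to −0.59 within 5 Mb, −0.62 at −log10 q of at least 10, −2.48 in the union (past the threshold), −1.24 with the list shortened, −1.81 without high local background (past the threshold), −0.17 without the outermost 100 kb and −2.40 to 0.89 with each library left out. The end share of 48 against 24 hpf passed the threshold in the union (−1.22) and with the list shortened (−1.07), ranged from −0.71 to −0.24 with each library left out, past the threshold without replicate 1 of either stage, and reversed to 0.38, past the threshold, without high local background. For both stage overlaps, removal of high local background also took away matches between stages. Its values there cannot show whether sharing itself was lower near ends.

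The strength by fold enrichment in WT 48 hpf replicates 1 and 2 lost its call within 5 Mb (−1.35 and −0.71 percentile points) and without the chromosome with the largest difference (−2.12 and −1.65), and in replicate 2 also in the union (−0.47) and without replicate 1 (−0.29). In WT 24 hpf replicate 1 it lost its call within 5 Mb (−0.83) and without the outermost 100 kb (−1.52), and reversed to 0.38 without high local background. In WT 24 hpf replicate 2 it passed the threshold within 1 Mb (2.45), and reversed to −0.32 at −log10 q of at least 10, −0.46 without replicate 1, −1.29 with the list shortened and −0.024 without high local background. Ranked by pileup, chosen after the data were seen, it was 7.33 and 6.13 at 48 hpf, 11.1 in WT 24 hpf replicate 1, all reversed, and 13.0 in replicate 2. The causes were not tested.

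With the replicate number as a block, the log2 difference between ctcf-/- and WT 48 hpf libraries stayed 0.49, with an exact p of 0.5 in place of 0.3333, each the smallest its pairing allows. Nothing says that the numbers pair the libraries. Whether a site is listed is limited by depth, most of all in ctcf-/- replicate 2.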
